A study of Rattus norvegicus with 9 samples.

Results

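The genes of the D cyclins (Ccnd1, Ccnd2, Ccnd3), of the CIP/KIP inhibitors of cyclin-dependent kinases (Cdkn1a, Cdkn1b, Cdkn1c), and of the INK4 inhibitors (Cdkn2a, Cdkn2b, Cdkn2c, Cdkn2d) were examined in adipose-derived mesenchymal stem cells (ASCs) of the rat. They were chosen by name, as the regulators that act on the cell cycle before DNA replication. Of the 10 genes, 9 were found in the table of 35362 genes, and these 9 were all among the 14770 genes with enough counts to be tested. Cdkn2d was not analysed here.

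ASCs were grown from groin subcutaneous fat (SASCs), perirenal fat (PASCs), and epididymal fat (EASCs) of male Sprague Dawley rats, 6 weeks old, and their RNA was sequenced at passage 3 after culture in high glucose medium with serum. No gene was altered and no agent was given, so the groups differ in the fat depot alone as far as the labels say. Each group holds 3 samples here, while the methods give 6 replicates, taken as wells of a culture plate. No source says whether these wells held cells of separate rats, so the p-values measure the spread between these samples, which may be technical.

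D-type cyclins bind CDK4 and CDK6, and the complexes phosphorylate the retinoblastoma protein, which then releases E2F transcription factors to switch on the genes of DNA replication. INK4 proteins bind CDK4 and CDK6 and keep the D cyclins off them, whereas CIP/KIP proteins bind complexes of cyclins with kinases and can block CDK2. An RNA level says nothing of the amount, the location, or the phosphorylation of the protein.

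The counts of a sample summed to between 17591916 and 30299032, and a gene at 3 counts had 0.104 to 0.159 CPM (a count relative to the TMM-scaled total of its library), a limit that covers counting error only. Genes of ribosomal RNA took 10.4% to 40.3% of the counts, with 13.6% ± 2.81 for SASCs, 27.6% ± 5.28 for PASCs, and 28.5% ± 12.2 for EASCs (SD, n = 3 each), and EASCs replicate 3 held the highest share. All 11 markers of mesenchymal stem cells were counted in every sample, and they summed to 24441 to 25651 CPM for SASCs, 21222 to 25744 for PASCs, and 24793 to 27332 for EASCs. Within this list 5 genes were higher and 6 lower than in SASCs in EASCs, and 5 were higher and 5 lower in PASCs (adjusted p under 0.05 at any fold change, edgeR). Ranked by the larger of the changes in EASCs and PASCs, Lum, Dcn, Pdgfra, and Vcam1 came first, all lower in both visceral groups. Lum was at 3234 CPM for SASCs, 93.1 for PASCs, and 74.1 for EASCs, while the log2 fold change of Vcam1 in EASCs was -0.65. Eng, named after its values were seen, rose instead, at 60.0, 89.8, and 204 CPM. Smooth muscle markers (8 genes) summed to 174 to 188 CPM for SASCs, 2927 to 3239 for PASCs, and 6610 to 6968 for EASCs. Among them Myocd, named after its values were seen, was not higher in PASCs, at 1.21, 1.13, and 4.87 CPM. Mesothelial markers (11 genes) summed to 21.6 to 23.4, 227 to 229, and 192 to 206 CPM, with Muc16 at no more than 2 counts and Krt19 and Cdh1 at 3 counts or fewer in 8 of 9 samples. Leukocyte markers (8 genes) summed to 48.6 to 53.1, 118 to 123, and 171 to 182 CPM with Cd3e and Cd79b at 0, while adipocyte markers (7 genes) summed to 111 to 120, 26.5 to 28, and 14.2 to 15.6 CPM with Lep at no more than 6 counts. Endothelial markers (7 genes) summed to 54.9 to 56.2, 13.9 to 17.0, and 37.9 to 40.8 CPM, although Tek, named after its values were seen, was at 2.55, 8.30, and 8.08 CPM. Cdh5 was at 9.20 and 9.77 CPM and Vwf, also named so, at 2.55 and 2.49 CPM for SASCs and EASCs, and neither passed the test between these groups. Markers of melanocytes and Schwann cells (6 genes) summed to 41.2 to 46.8, 9.83 to 12.2, and 3.69 to 3.98 CPM, with Dct at 0 and Sox10 at 3 counts or fewer. The ranges of the mesenchymal stem cell sum overlapped between the groups, whereas the other sums moved with them. The part of these markers in the results below was not tested. In such bulk RNA, fewer cells that express a gene and less RNA in each cell cannot be told apart.

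Of the 9 measured genes, 6 matched an entry of the RefSeq promoter table (build GRCr8). The DNA before Cdkn1a and before Cdkn2b is shown because these inhibitor genes differed in opposite directions between visceral and subcutaneous cells. Each sequence starts 250 bases before the transcription start and ends where the annotated gene begins, and it is written 5′ to 3′ on the strand of the gene, Cdkn1a at chr20:7150682-7150819 (plus strand) and Cdkn2b at chr5:109134907-109135105 (minus strand). Capitals mark a match to the half-site of the p53 motif before Cdkn1a, and before Cdkn2b a GC box (GGGCGG on either strand), the cAMP response element TGACGTCA, and another GC box.

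Cdkn1a: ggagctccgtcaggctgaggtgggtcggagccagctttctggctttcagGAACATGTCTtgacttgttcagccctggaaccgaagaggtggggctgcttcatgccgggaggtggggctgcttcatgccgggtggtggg

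Cdkn2b: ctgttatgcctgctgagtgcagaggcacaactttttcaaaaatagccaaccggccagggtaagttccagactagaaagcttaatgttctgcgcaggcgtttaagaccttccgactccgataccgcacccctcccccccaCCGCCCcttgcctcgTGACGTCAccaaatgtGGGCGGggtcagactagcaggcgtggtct

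The half-site before Cdkn1a begins at position -201 from the transcription start, and such a match was found in 6.64% of the 250-base windows of 33469 promoters on either strand. TGACGTCA begins at -96 before Cdkn2b and was present in 1.59% of all windows, and GGGCGG in 30.5%. The E2F motif, searched on both strands as TTTCGCGC, TTTGGCGC, TTTCCCGC, or TTTGCCGC and present in 1.73% of windows, had no match in the windows of the 6 genes, which says only that these letters are not there. Windows end at the listed transcription start, and those of Ccnd3, Cdkn2a, and Cdkn2c lay wholly inside the annotated gene, as did 231 of the 250 bases for Cdkn1b. The p53 half-site was also matched in the window of Cdkn2c at -11. GC boxes were matched in the windows of Ccnd3, Cdkn1b, Cdkn2a, and Cdkn2c, and once more in that of Cdkn2b at -47, past the end of the sequence shown. The CHR, a cell cycle element searched as TTTGAA or TTCGAA and present in 17.4% of windows, was matched before Cdkn2b at -216, on the other strand and left in lower case above. CCAAT, present in 34% of windows, was matched in the windows of Ccnd3 and Cdkn1b. The TATA box (TATAAA, 12.9% of windows), the E-box (CACGTG, 5.59%), and the AP-1 motif (TGANTCA, 6.34%) had no match in the windows of these 6 genes. A match is a string of letters and was not tested as a binding site.

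The 3 D cyclin genes did not move together. Ccnd3 was upregulated in both visceral groups, Ccnd1 was lower in EASCs than in the other groups, and Ccnd2 was lower in PASCs and higher in EASCs than in SASCs. By edgeR's quasi-likelihood test with Benjamini-Hochberg adjustment, a fold change above 2 with an adjusted p-value under 0.05 (a DEG) was reached by 4 of the 9 measured genes in EASCs vs. SASCs, where 27.8% of all genes tested were DEGs, by 4 in PASCs vs. SASCs (26.9%), and by 2 in EASCs vs. PASCs (7.39%). At any fold change, 8, 7, and 7 of the 9 genes passed, beside 69.7%, 69.2%, and 30.7% of all genes. The samples of the groups compared did not overlap in CPM for 8, 7, and 8 of the 9 genes, beside 72.1%, 71.6%, and 41.2% of all genes. EASCs and PASCs were compared with the same 3 SASCs samples.

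**Figure D1:**
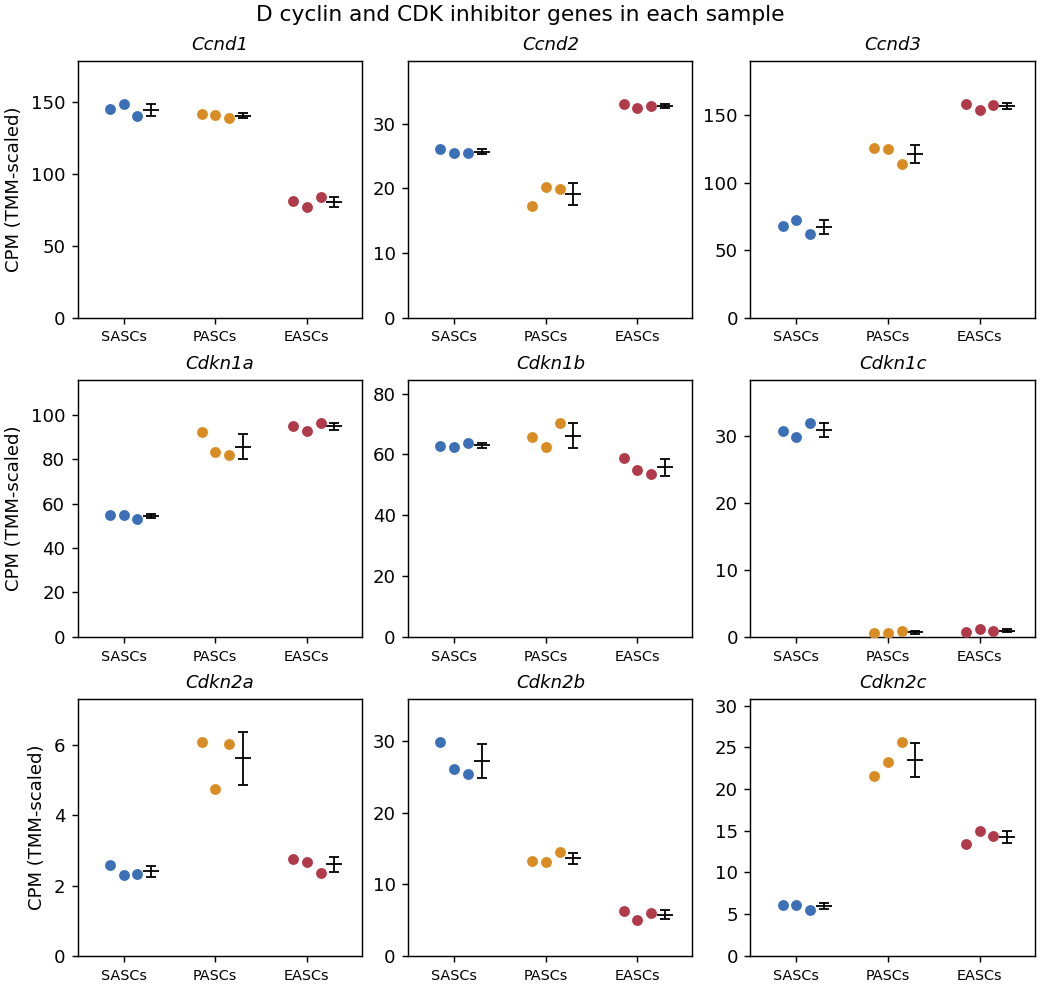
CPM after TMM scaling of the 9 measured genes in each sample (points, 3 samples in each of SASCs, PASCs, and EASCs) with the mean and SD at the right of the points, each panel with its own axis from 0. Cdkn1c stood at 29.8 to 31.9 CPM in SASCs and at no more than 1.13 CPM in the other samples, Ccnd3 rose from SASCs to PASCs to EASCs, and Cdkn2b fell in that order.

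Ccnd3, which encodes cyclin D3, lies on the minus strand of chromosome 9 from 15404816 to 15410905 (rn6). Its CPM was 68.1, 72.3, and 62.0 for SASCs, 126, 125, and 114 for PASCs, and 158, 154, and 158 for EASCs. The groups did not overlap, and every EASCs sample was above every PASCs sample. Against SASCs, the log2 fold change of Ccnd3 was 1.22 in EASCs (standard error, SE, 0.0606, adjusted p = 4.09e-16, edgeR), a DEG, and 0.85 in PASCs (SE 0.0607, adjusted p = 1.20e-12), below the fold threshold. EASCs exceeded PASCs by 0.37 on the log2 scale (adjusted p = 1.64e-05). With total counts without TMM, Ccnd3 was under the fold threshold in EASCs vs. SASCs (0.82), and its difference between EASCs and PASCs was not called (0.30, adjusted p = 0.245).

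Ccnd1, the gene of cyclin D1, is induced by growth factors through ERK signaling and lies on the minus strand of chromosome 1 from 218090750 to 218100447. It was at 145, 149, and 140 CPM for SASCs, 142, 141, and 139 for PASCs, and 80.9, 76.8, and 83.9 for EASCs. The samples of SASCs and PASCs overlapped, and those of EASCs lay below all of them. In EASCs the log2 fold change of Ccnd1 was -0.85 against SASCs (SE 0.0544, adjusted p = 1.10e-13) and -0.81 against PASCs (adjusted p = 2.44e-12). Between PASCs and SASCs it was -0.04 with a 95% interval of -0.15 to 0.07 (adjusted p = 0.494), but it passed with total counts without TMM (-0.37, adjusted p = 0.0399).

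Ccnd2, the gene of cyclin D2, lies on the minus strand of chromosome 4 from 159674885 to 159697207. Ccnd2 had 26.1, 25.5, and 25.4 CPM for SASCs, 17.2, 20.3, and 19.9 for PASCs, and 33, 32.3, and 32.7 for EASCs. No groups overlapped, with SASCs between the visceral groups. Against SASCs, Ccnd2 changed by 0.35 on the log2 scale (adjusted p = 0.000306) in EASCs and by -0.43 (adjusted p = 4.13e-05) in PASCs, and EASCs exceeded PASCs by 0.78 (SE 0.0801, adjusted p = 1.13e-08). The increase in EASCs depends on the scaling, since total counts without TMM gave -0.047 for it (adjusted p = 0.824), where the median of all genes was -0.39.

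Because a share within a family does not depend on the scaling of the library, the make-up of each family was also compared, as each gene's share of the summed FPKM (CPM divided by the annotated gene length in kilobases). Ccnd3 made up 39.3% ± 1.36 of D cyclin FPKM for SASCs, 56.5% ± 1.54 for PASCs, and 65.4% ± 0.255 for EASCs (SD, n = 3 each). The share of Ccnd1 went the other way, at 40.3% ± 0.584, 31.3% ± 0.682, and 16% ± 0.452. That of Ccnd2 was 20.5% ± 0.827, 12.2% ± 1.19, and 18.6% ± 0.199. In SASCs Ccnd1 and Ccnd3 thus held about equal shares, with samples from 39.8% to 40.9% and from 37.9% to 40.6%, and in both visceral groups Ccnd3 held the largest share of FPKM. For each of the 3 D cyclins, the shares of no 2 groups overlapped (two-sided exact permutation test, p = 0.1 for each pair of groups, the smallest that 3 samples against 3 allow). The summed FPKM of the family was 88.8 ± 3.80 for SASCs, 111 ± 3.34 for PASCs, and 124 ± 2.25 for EASCs. Shares between genes depend on the lengths of the gene models, which were 4050 bases for Ccnd1, 1414 for Ccnd2, and 1933 for Ccnd3. Without division by length Ccnd1 had the most CPM of the family for SASCs (145 against 67.5 for Ccnd3) and for PASCs (141 against 121), and Ccnd3 had the most for EASCs. The difference in the share of Ccnd2 between EASCs and SASCs, -1.84 percentage points of FPKM, was reversed as a share of raw counts.

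**Figure D2:**
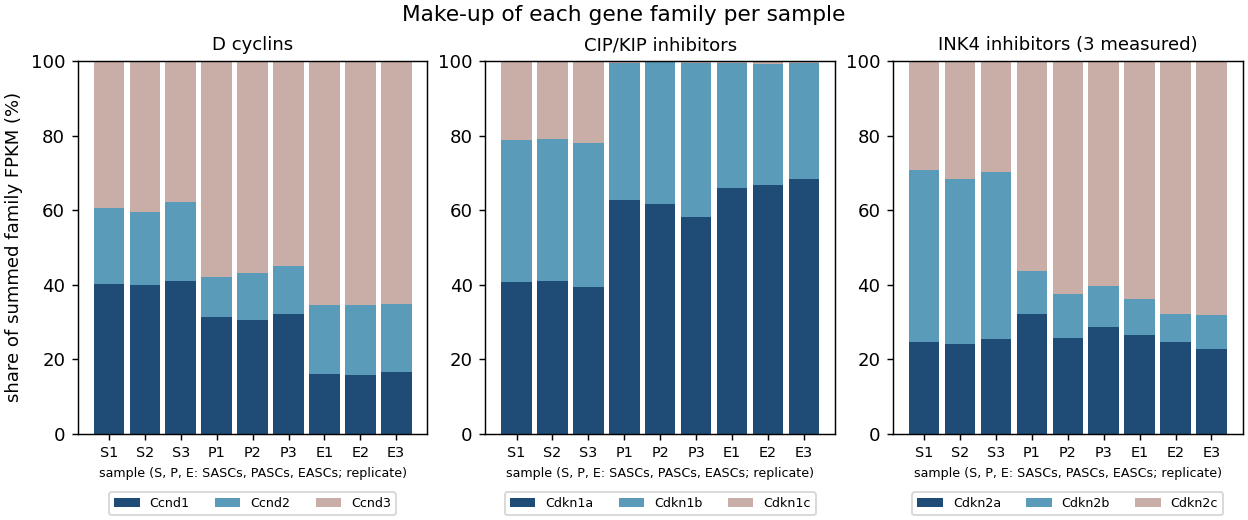
Share of each gene in the summed FPKM of its family (%, stacked to 100) in each of the 9 samples, S, P, and E standing for SASCs, PASCs, and EASCs with the replicate number. Ccnd3 rose from 39.3% to 65.4% of D cyclin FPKM between SASCs and EASCs, Cdkn1c took 21.4% of CIP/KIP FPKM in SASCs and under 1% elsewhere, and Cdkn2c passed Cdkn2b in both visceral groups.

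Among the CIP/KIP inhibitors, Cdkn1c was far lower in both visceral groups, Cdkn1a was higher in them, and Cdkn1b was slightly lower in EASCs. Cdkn1c encodes p57, is an imprinted gene expressed mainly from the maternal copy, and is known for its part in growth restraint and in the quiescence of stem cells. It lies on the minus strand of chromosome 1 from 216661067 to 216663774. Counts of Cdkn1c were 882, 702, and 653 for SASCs, 17, 14, and 17 for PASCs, and 18, 28, and 19 for EASCs, all above 3 counts. After scaling these were 30.7, 29.8, and 31.9 CPM for SASCs, 0.650, 0.523, and 0.900 for PASCs, and 0.754, 1.13, and 0.850 for EASCs. SASCs stood far from the 6 visceral samples, which overlapped among themselves. The log2 fold change of Cdkn1c against SASCs was -5.51 in PASCs (SE 0.162, adjusted p = 2.92e-21) and -5.06 in EASCs (SE 0.154, adjusted p = 5.37e-21), which was the largest change among the 9 genes in either comparison. EASCs and PASCs differed by 0.45, with a 95% interval from -0.11 to 1.00 (adjusted p = 0.232).

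Cdkn1a, the gene of p21 and a target of p53, is located on chromosome 20 (6348422 to 6358864, plus strand). It was at 54.7, 54.8, and 53.2 CPM for SASCs, 92.2, 83.1, and 81.7 for PASCs, and 95, 92.9, and 96.3 for EASCs. The 3 groups did not overlap. Against SASCs Cdkn1a rose in EASCs by 0.80 (adjusted p = 1.99e-12) and in PASCs by 0.66 on the log2 scale (adjusted p = 1.28e-10), a change of less than 2-fold in both. The difference between EASCs and PASCs, 0.14, did not pass the test (95% interval 0.03 to 0.26, adjusted p = 0.0598). It did pass with the replicate number as a block, with upper-quartile scaling, and without PASCs replicate 1. With total counts without TMM, the increase in PASCs fell to 0.34 and was not called (adjusted p = 0.0634). The increase in EASCs then fell to 0.41 (adjusted p = 0.0209). The table also lists Lemd2 over this locus on the other strand, with 76 to 152 counts, and the counting is not stated to use strand.

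Cdkn1b encodes p27, which restrains CDK2 in resting cells, and is located on chromosome 4 (168689046 to 168694159, plus strand). Cdkn1b had 62.8, 62.3, and 63.9 CPM for SASCs, 65.9, 62.3, and 70.4 for PASCs, and 58.8, 55.0, and 53.5 for EASCs. SASCs and PASCs overlapped, and EASCs were the lowest. Its log2 fold change was 0.07 in PASCs (adjusted p = 0.323) and -0.18 in EASCs (adjusted p = 0.0140) against SASCs, and -0.25 between EASCs and PASCs (adjusted p = 0.00300). The call in EASCs vs. SASCs was lost without EASCs replicate 3, the sample with the most ribosomal RNA (-0.14, adjusted p = 0.0686), without EASCs replicate 2 (-0.16, adjusted p = 0.0541), and with upper-quartile scaling (-0.14, adjusted p = 0.0506). The call between EASCs and PASCs was lost with total counts without TMM (-0.32, adjusted p = 0.205). With that scaling the value in EASCs vs. SASCs was larger, at -0.57, where the median of all genes was -0.39.

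Within the CIP/KIP family, Cdkn1a held 40.3% ± 0.876 of the FPKM for SASCs, 61.0% ± 2.37 for PASCs, and 67.1% ± 1.17 for EASCs (SD, n = 3 each). The share of Cdkn1c was 21.4% ± 0.599 for SASCs, 0.459% ± 0.125 for PASCs, and 0.605% ± 0.141 for EASCs. Cdkn1b held 38.3% ± 0.292, 38.6% ± 2.26, and 32.3% ± 1.19. For Cdkn1a and Cdkn1c neither visceral group overlapped with SASCs, and for Cdkn1b EASCs lay below both SASCs and PASCs without overlap (p = 0.1 in each exact permutation test, again the smallest possible), while SASCs and PASCs overlapped. The summed FPKM of the family was 68.4 ± 0.428, 71.4 ± 3.07, and 71.8 ± 1.23.

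The INK4 genes took 3 separate patterns, with Cdkn2b highest in SASCs, Cdkn2c higher in both visceral groups, and Cdkn2a higher in PASCs alone. Cdkn2b, which encodes p15 and is a target of TGF-beta signaling, lies on the minus strand of chromosome 5 from 107848177 to 107857323. Its CPM was 29.9, 26.2, and 25.5 for SASCs, 13.2, 13.2, and 14.5 for PASCs, and 6.24, 5.07, and 5.99 for EASCs. The groups were separate and fell from SASCs to PASCs to EASCs. The log2 fold change of Cdkn2b was -2.24 in EASCs vs. SASCs (SE 0.109, adjusted p = 2.19e-16), -1.0 in PASCs vs. SASCs (SE 0.0983, adjusted p = 7.42e-10), and -1.24 in EASCs vs. PASCs (SE 0.114, adjusted p = 1.21e-09), and it was the gene of the set that was a DEG in each of the 3 comparisons. The decrease in PASCs sat at the 2-fold threshold, and it was below it without SASCs replicate 1, PASCs replicate 1, PASCs replicate 2, or EASCs replicate 2, while its adjusted p was no more than 3.14e-08 in any of these.

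Cdkn2c encodes p18 and lies on the minus strand of chromosome 5 from 129347731 to 129352886, away from the locus that Cdkn2a and Cdkn2b share. It was at 6.15, 6.11, and 5.52 CPM for SASCs, 21.5, 23.3, and 25.6 for PASCs, and 13.4, 14.9, and 14.4 for EASCs. Again no groups overlapped, and PASCs were the highest. Cdkn2c rose in PASCs by 1.98 (SE 0.107, adjusted p = 2.59e-15) and in EASCs by 1.26 on the log2 scale (SE 0.110, adjusted p = 7.71e-11), and its log2 fold change between EASCs and PASCs was -0.72 (adjusted p = 1.26e-06). Without TMM the value in EASCs was 0.87, under the fold threshold.

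Cdkn2a, which through separate first exons encodes both p16 and Arf, lies on the minus strand of chromosome 5 from 107823323 to 107832405. Counts of a gene do not separate these products. The counts ran from 48 to 74 for SASCs, from 114 to 159 for PASCs, and from 53 to 66 for EASCs, the fewest of the 3 INK4 genes in each sample. These were 2.57, 2.29, and 2.34 CPM for SASCs, 6.08, 4.75, and 6.04 for PASCs, and 2.76, 2.68, and 2.37 for EASCs. PASCs lay above all other samples, and SASCs overlapped with EASCs. Cdkn2a rose by 1.22 on the log2 scale in PASCs vs. SASCs (SE 0.188, adjusted p = 2.28e-06) and differed by -1.10 in EASCs vs. PASCs (SE 0.187, adjusted p = 3.43e-05), both DEGs, and by 0.11 in EASCs vs. SASCs (95% interval -0.30 to 0.53, adjusted p = 0.631). Without TMM the first of these was 0.90, under the fold threshold.

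The row LOC102552336, described in the table as an isoform of the same inhibitor and chosen after its values were seen, lies between Cdkn2a and Cdkn2b on the minus strand from 107834353 to 107841298. It was at 2.23 ± 0.598 CPM for SASCs, 5.6 ± 0.322 for PASCs, and 2.28 ± 0.390 for EASCs (SD, n = 3 each). Its log2 fold changes were 1.31 in PASCs vs. SASCs (adjusted p = 3.07e-06), 0.01 in EASCs vs. SASCs (adjusted p = 0.969), and -1.30 in EASCs vs. PASCs (adjusted p = 1.50e-05). Reads of Cdkn2a could have been split with this row, and with its reads added the values of Cdkn2a were 1.26, 0.07, and -1.20.

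Of INK4 FPKM, with Cdkn2d left out, Cdkn2b made up 45.1% ± 0.997 for SASCs, 11.3% ± 0.247 for PASCs, and 8.81% ± 1.14 for EASCs (SD, n = 3 each). Cdkn2c made up 30.2% ± 1.33, 59.8% ± 3.1, and 66.6% ± 2.41, and in both visceral groups it was the INK4 gene with the highest level per length. Neither share overlapped between any pair of groups (p = 0.1 in each exact permutation test, the smallest possible). The summed FPKM was 13.7 ± 0.913 for SASCs, 27.4 ± 2.00 for PASCs, and 14.9 ± 0.352 for EASCs. On that scale Cdkn2a and Cdkn2b rest on model lengths of 709 and 4394 bases.

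**Figure D3:**
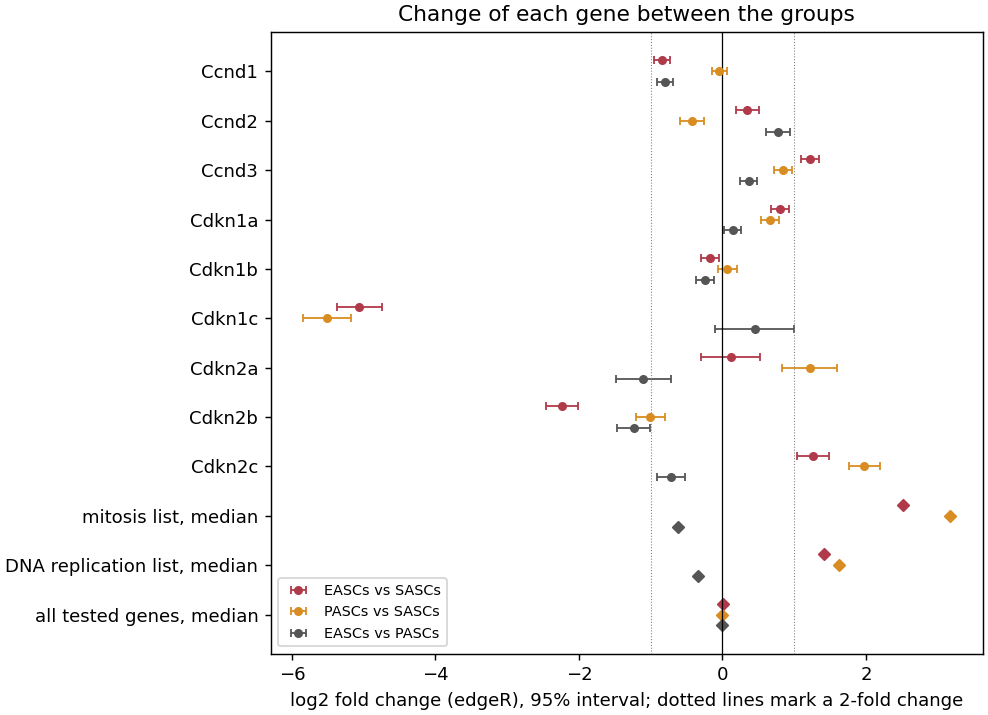
Log2 fold change from edgeR (x axis, points with 95% intervals) of the 9 genes in the 3 comparisons, with the median of the mitosis list, the DNA replication list, and all genes tested as diamonds, and dotted lines at a 2-fold change. Cdkn1c was at -5.06 and -5.51 against SASCs, the other members lay between -2.24 and 1.98, and the mitosis medians were 2.51 in EASCs and 3.17 in PASCs.

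The members were then set against genes that act later in the cell cycle. The replication and mitosis lists were taken because such genes were known from these data to be higher in visceral cells. Their counts below describe the lists and are no test of them. Of 46 genes of DNA replication, all tested, 35 were upregulated DEGs in EASCs (13.6% of all genes tested) and 39 in PASCs (12% of all genes) against SASCs, and none was a downregulated DEG. With total counts without TMM, 25 were upregulated and 1 was a downregulated DEG in EASCs and 36 were upregulated DEGs in PASCs, where the DEGs among all genes were 1349 up and 3426 down in EASCs (2002 and 2103 with TMM) and 1262 up and 3169 down in PASCs (1779 and 2200 with TMM). The median log2 fold change of the list was 1.42 and 1.62, where that of all genes tested was 0.01 and -0.01. Tk1, thymidine kinase, was at 10.0 ± 1.15 CPM for SASCs, 117 ± 8.07 for PASCs, and 62.3 ± 2.52 for EASCs (SD, n = 3 each), and Cdc45, Cdc6, and Mcm5, of the replicative helicase and its loading, had log2 fold changes of 2.63, 2.72, and 2.64 in EASCs and 3.12, 3.09, and 3.08 in PASCs. The exceptions with a lower level, named after their values were seen, were subunits of the origin recognition complex, with Orc3 at -0.65 (adjusted p = 1.16e-06, EASCs) and -0.62 (adjusted p = 2.00e-06, PASCs), and Orc2 at -0.31 (adjusted p = 0.00738, EASCs). Other subunits of this complex, also named so, were higher in visceral cells. Orc1 was at 2.32, 8.90, and 7.15 CPM and Orc6 at 3.11, 9.06, and 9.10 CPM for SASCs, PASCs, and EASCs.

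Of 54 genes of mitosis tested, 52 in EASCs (13.6% of all genes) and 53 in PASCs (12%) were upregulated DEGs, with median log2 fold changes of 2.51 and 3.17. With total counts without TMM, 47 and 52 mitosis genes were upregulated DEGs. Bub3 in both groups and Smc4 in EASCs, named after their values were seen, rose by less than 2-fold. Nek2, Plk1, Ccnb1, and Ube2c had the largest changes, at 3.71, 3.50, 3.30, and 3.42 in EASCs and 4.35, 4.07, 4.02, and 3.96 in PASCs. Between EASCs and PASCs 53 of the mitosis genes and 27 of the replication genes were lower in EASCs at any fold change (14.5% of all genes), and 1 and 0 of them were DEGs (2.2% of all genes), the 1 being Kif18a (-1.05, adjusted p = 5.47e-05), also named after its value was seen. Ccnd3 was thus higher in EASCs than in PASCs, whereas these lists and Cdkn2c were lower.

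**Figure D4:**
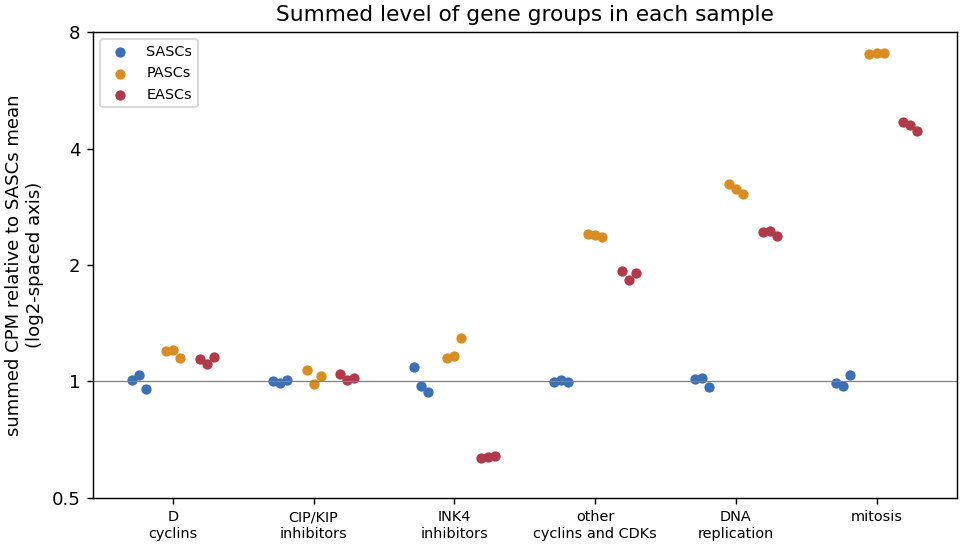
Summed CPM of the genes of each group in each sample, relative to the mean of the 3 SASCs samples (log2-spaced y axis, 1 point per sample). The mitosis list stood at 334 to 357 CPM for SASCs, 2415 to 2438 for PASCs, and 1525 to 1612 for EASCs, while the D cyclins summed to 228 to 247, 273 to 286, and 263 to 274 CPM.

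In summed CPM the mitosis list was 344 ± 11.5 for SASCs, 2430 ± 13.4 for PASCs, and 1575 ± 45.0 for EASCs (SD, n = 3 each), and the replication list 398 ± 11.9, 1250 ± 37.0, and 963 ± 15.6. The D cyclins together were at 238 ± 9.49, 281 ± 7.31, and 270 ± 6.0 CPM, with PASCs above EASCs in mean CPM but below them in summed FPKM (111 and 124), and the CIP/KIP inhibitors at 148 ± 1.05, 153 ± 6.36, and 151 ± 2.81 CPM. The INK4 inhibitors summed to 35.5 ± 2.76 CPM for SASCs, 42.7 ± 2.95 for PASCs, and 22.6 ± 0.167 for EASCs. EASCs were the lowest in summed CPM but not in summed FPKM, where SASCs were the lowest at 13.7 ± 0.913, beside 14.9 ± 0.352 in EASCs. Such sums are led by the genes with the most counts, Ccnd1 and Ccnd3 among the D cyclins.

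The kinases that the D cyclins bind were Cdk4 and Cdk6. Cdk4 was at 102 ± 6.87 CPM for SASCs, 116 ± 4.88 for PASCs, and 110 ± 4.39 for EASCs (SD, n = 3 each), and the log2 fold change was 0.20 for PASCs (adjusted p = 0.00463) and 0.12 in EASCs (adjusted p = 0.0753). Cdk6 was at 21.1 ± 3.04, 54.8 ± 3.82, and 40.5 ± 2.20 CPM, and it was a DEG in PASCs (1.38, adjusted p = 6.72e-14) and rose by 0.95 in EASCs (adjusted p = 2.46e-10). Cdk2, the partner of cyclins E and A, rose by 0.96 in PASCs (adjusted p = 1.81e-09) and 0.92 in EASCs (adjusted p = 4.40e-09). Of the 17 other cyclins, CDKs, and CDK phosphatases and kinases tested, 9 were upregulated DEGs in EASCs (13.6% of all genes tested), 10 in PASCs (12% of all genes), and none was a downregulated DEG, with Cdk1 at 6.83 ± 1.04 CPM for SASCs, 69.7 ± 3.41 for PASCs, and 50.4 ± 3.87 for EASCs. Ccnb2 and Ccna2 had log2 fold changes of 2.78 and 2.36 in EASCs and 3.31 and 3.23 in PASCs. Cdk1, Ccnb1, and Ccnb2 belong to the mitosis list as well, so the counts of these lists are not separate.

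Downstream of the D cyclins, Rb1, the gene of the retinoblastoma protein, was at 17.3 ± 1.03 CPM for SASCs, 15.1 ± 1.56 for PASCs, and 17.0 ± 0.391 for EASCs (SD, n = 3 each), and its log2 fold changes against SASCs did not pass, at -0.19 in PASCs (adjusted p = 0.0763) and -0.03 in EASCs (adjusted p = 0.818). Of 12 genes of the RB and E2F families tested, 5 were upregulated DEGs in each visceral group, beside 13.6% of all genes in EASCs and 12% in PASCs, and none was a downregulated DEG. E2f1 rose from 8.38 ± 0.948 CPM in SASCs to 30.03 ± 1.18 in PASCs and 22.4 ± 0.390 in EASCs, and E2f2, E2f7, and E2f8 had log2 fold changes of 2.84, 2.35, and 1.76 in EASCs. Among 7 genes of the DREAM and MMB complexes, which repress or activate cell cycle genes, 2 were upregulated DEGs in EASCs and 4 in PASCs, beside the same 13.6% and 12% of all genes. Mybl2 and Foxm1, the factors that turn on late cell cycle genes, had log2 fold changes of 3.1 and 2.26 in EASCs and 3.53 and 2.79 in PASCs, and Lin9 and Lin54 of 1.32 and 1.05 in PASCs.

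Of 15 genes of the ubiquitin ligases that act on D cyclins and CDK inhibitors, 3 were upregulated DEGs in EASCs (13.6% of all genes) and 4 in PASCs (12%), and none was a downregulated DEG. The count in EASCs is near the share over all genes. Cdc20, an activator of the anaphase-promoting complex, rose by 2.76 in EASCs and 3.44 in PASCs on the log2 scale, and it also belongs to the mitosis list. Dtl, which targets p21 during replication, was at 1.74 and 2.13, and Cks1b, the cofactor of SKP2 for p27, at 1.36 and 1.57. Fzr1 rose by 1.09 in PASCs and 0.94 in EASCs.

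Of 28 transcription regulators of the members, 1 was an upregulated and 5 were downregulated DEGs in EASCs (13.6% and 14.2% of all genes), and 2 and 4 were in PASCs (12% and 14.9%), counts near or below the shares over all genes. The immediate early gene Egr1 fell from 387 ± 30.6 CPM in SASCs to 33.8 ± 1.58 in PASCs and 31.4 ± 1.93 in EASCs (SD, n = 3 each). Fos was at 44.8 ± 0.305, 4.91 ± 0.632, and 5.80 ± 0.533 CPM, and Junb at 529 ± 28.2, 170 ± 4.88, and 136 ± 10.3 CPM. Mycn, upregulated by 3.46 in EASCs and 2.83 in PASCs, had a mean of only 0.0888 CPM in SASCs.

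Since Cdkn1a is a target of p53, 22 other p53 target genes were examined, of which 2 were upregulated and 3 downregulated DEGs in EASCs (13.6% and 14.2% of all genes), and 1 and 2 in PASCs (12% and 14.9%). These counts are near or below the shares over all genes. Their median log2 fold change was 0.05 in EASCs and -0.01 in PASCs, where that of all genes was 0.01 and -0.01. Gadd45a, which binds p21 and PCNA, was at 209 ± 8.17 CPM for SASCs, 38.6 ± 2.78 for PASCs, and 23.4 ± 3.46 for EASCs (SD, n = 3 each), and Btg2 fell by 1.82 on the log2 scale in EASCs and by 2.49 in PASCs. Phlda3, a repressor of AKT, rose by 1.88 in EASCs and 1.77 in PASCs, and Sesn2 by 1.14 and 0.96.

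In each family the gene with the widest range of group means was compared with all tested genes of sufficient annotation by Pearson's r of log2 CPM over the 9 samples, which share 3 groups. Of 12204 genes searched, Fos (r = 0.9997), Runx1t1 (0.9984), and Snx9 (0.9983) were nearest to Cdkn1c, and 1129 genes exceeded an r of 0.95. Nearest to Ccnd3 were Rpp25 (0.9957), Vamp5 (0.9957), and Gjb2 (0.9955), and nearest to Cdkn2b were Slc16a1 (0.9976), Insig1 (0.9956), and Lpcat3 (0.9930), with 797 and 234 genes above 0.95. Insig1 was at 649 CPM for SASCs, 235 for PASCs, and 69.7 for EASCs, in the order of Cdkn2b. These values describe the likeness of levels over the groups and carry no test.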

How the data were processed

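RNA of 9 samples, 3 each of SASCs, PASCs, and EASCs, was grouped by the labels. The authors aligned paired-end reads of 150 bp to rn6 with TopHat per the methods, while the submitters' processing notes list rn5 and TopHat2, and the positions given are those of the deposited table, taken as rn6. The deposited values are whole-number counts per gene without normalization, and the counting tool and its use of strand are not given in the sources used here. Counts were scaled by TMM (factors 0.740 to 1.23), filtered by filterByExpr, and tested in edgeR 4.0.16 (R 4.3.3) by the quasi-likelihood test in a single model of all 3 groups with no block, with Benjamini-Hochberg adjustment over 14770 genes in each comparison. The SE was the log2 fold change over the square root of the F statistic, and 95% intervals took the t quantile of its degrees of freedom. The fold threshold of 2 is that of the study. FPKM was computed from the counts and the table's gene lengths. The fit was tested on counts simulated for EASCs vs. SASCs.

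The members and lists were chosen with earlier results of these data known. Named were all members, at most 4 genes of each other list with the largest change against SASCs, Cdk4, Cdk6, Cdk2, Rb1, and E2f1, 3 pattern neighbours of 1 gene per family, cell type markers at or near 0, and Lemd2, which overlaps Cdkn1a. Other genes named outside this rule are given as such. Tfdp1, Knl1, Trp53inp1, Tigar, and Adgre1 of the lists were not analysed here. 1 cell type marker is not reported here and was left out of its list. Alternatives were DESeq2 1.42.0, limma 3.58.1 (voom), other scaling, no filter, removal of rRNA genes, fits of 2 groups, the replicate number as a block, and leaving out each replicate. Promoter windows came from RefSeq (GRCr8), and coordinates of the builds were not mixed. The labels do not say that a replicate number marks a rat, so the numbers were not taken as pairs. Deviations correlated over genes between -0.0326 and 0.0286 for the same number and between -0.0557 and 0.0665 for different numbers. Such correlations cannot exclude a shared rat.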

Additional observations from a re-analysis of the deposited data

Results flagged for a closer look

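For 7 of the 9 measured genes the change against SASCs differed between EASCs and PASCs, as tested by the direct comparison of EASCs with PASCs in edgeR (adjusted p of each in the report). The difference in log2 fold change was -0.81 for Ccnd1, 0.78 for Ccnd2, 0.37 for Ccnd3, -0.25 for Cdkn1b, -1.10 for Cdkn2a, -1.24 for Cdkn2b, and -0.72 for Cdkn2c. With total counts without TMM the calls of Ccnd3 (adjusted p = 0.245) and Cdkn1b (adjusted p = 0.205) were lost. Beside these 7, 30.7% of all genes tested differed in this comparison at any fold change. Ccnd2 alone of the members changed in opposite directions against SASCs with both changes past the test, at 0.35 in EASCs and -0.43 in PASCs, and with total counts without TMM the value in EASCs was -0.047 (adjusted p = 0.824), so that the directions were no longer opposite. All 3 INK4 genes measured were lower in EASCs than in PASCs, and their directions against SASCs were not shared, with Cdkn2b below SASCs, Cdkn2c above, and Cdkn2a above in PASCs. The cause of these differences was not tested.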

How the results depend on the processing

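Scaling by total counts without TMM was the alternative that reversed log2 fold changes of members, and the median of all genes then became -0.39 in EASCs and -0.33 in PASCs against SASCs. The log2 fold changes of Ccnd2 (-0.047) and Cdkn2a (-0.28) in EASCs and of Cdkn1b (-0.25) in PASCs were then reversed, though none passed the test. The DEGs among the members became Ccnd1, Cdkn1c, and Cdkn2b in EASCs and Cdkn1c, Cdkn2b, and Cdkn2c in PASCs, while 3 mitosis genes were DEGs between EASCs and PASCs. At any fold change, 10298, 10227, and 4530 of all genes passed in EASCs vs. SASCs, PASCs vs. SASCs, and EASCs vs. PASCs, with 8, 7, and 7 members, and 27 replication and 53 mitosis genes passed in the last. With each replicate left out in turn, mitosis DEGs between EASCs and PASCs numbered 0 to 2, and members called in PASCs vs. SASCs 3 to 4, by Cdkn2b, which also fell under 2-fold with upper-quartile scaling. The replicate number as a block left the members called at 4, 4, and 2, and with it the difference of Cdkn1a between EASCs and PASCs, 0.15, passed (adjusted p = 0.0443), as it did with upper-quartile scaling (0.17, adjusted p = 0.0246) and without PASCs replicate 1. As shares of raw counts instead of FPKM, the differences of Ccnd2 and Cdkn2a between EASCs and SASCs reversed to 1.31 and 4.74 percentage points from -1.84 and -0.13. Without a single replicate, the difference of Cdkn2a in EASCs vs. SASCs ranged from -1.09 to 0.838 points and that of Cdkn1b in PASCs vs. SASCs from -1.02 to 1.16, beside 0.24. Of the 462 values of log2 fold changes of members under the alternatives, 449 kept their direction and their side of an adjusted p of 0.05, whatever the fold. Depth limits Cdkn2a and the visceral level of Cdkn1c, which rest on 48 to 159 and 14 to 28 counts.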
